A study of Rattus norvegicus with 6 samples.

Results

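The fibroblast growth factor (FGF) genes described here were 6 ligands, Fgf1, Fgf2, Fgf7, Fgf9, Fgf10 and Fgf18, and 4 receptors, Fgfr1, Fgfr2, Fgfr3 and Fgfr4, in rat lung. They were taken by gene name from the table of linear transcripts, and all 10 were found, with 36 transcripts among them, out of 21210 gene names and 70376 transcripts in the whole table. Their levels were compared between lungs of 3 control Sprague-Dawley rats, which received saline, and lungs of 3 rats of a pulmonary fibrosis (PF) model, which received a single intratracheal instillation of bleomycin at 7 mg/kg. The rats were 7 weeks old at the start, and lungs were collected on day 28. Each library came from the total RNA of 1 rat after removal of rRNA, so it holds all cell types of the specimen mixed. The sex of the rats and the lobe taken were not given in the sources used here.

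FGFs are secreted signals that bind receptor tyrosine kinases on the cell surface together with heparan sulfate, and the bound receptor passes the signal through adaptor proteins to the Ras and MAP kinase relay. In the lung, mesenchymal cells make Fgf7 and Fgf10, which act on the epithelium through a splice form of Fgfr2 and are known for branching of the airways and for repair of the alveolar epithelium. Fgf9 comes from mesothelium and epithelium during lung development and acts on the mesenchyme, while Fgf1 and Fgf2 bind several receptors and are growth factors for fibroblasts and endothelium.

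Levels are given as FPKM, fragments scaled to the length of the transcript and to the depth of the library, which allows genes to be set side by side, and the FPKM of a gene is the sum over its transcripts. Differences were tested with limma on log2(FPKM + 1), in which a change of a gene far below 1 FPKM appears smaller than it is. A gene was called when its unadjusted p was at most 0.05 and the ratio of the group mean FPKM was at least 1 on the log2 scale in either direction, as in the thresholds of the study. Between 35778631 and 41112682 reads per library fell on the linear transcripts, as estimated from the coverage. These are a part of each library, fewer than the clean reads that the study reported. Defining markers of type 2 cells (Sftpc from 2410 to 4146 FPKM) and airway secretory cells (Scgb1a1 from 4065 to 7693 FPKM) were abundant in all 6 libraries. The cardiac muscle list summed to 27.9 FPKM in model 3 against 6.19 to 10.9 FPKM in the other 5 libraries, and Myh6, the cardiac myosin heavy chain, was at 5.11 FPKM in model 3 and at 0 in all controls and model 1. Among 7 fibroblast markers none was called. Col3a1, a fibrillar collagen gene, was at 174, 178 and 154 FPKM in controls and 189, 204 and 233 FPKM in model lungs (unadjusted p = 0.0365, adjusted p = 0.934 with limma). It was the only one of the 7 whose groups did not overlap. Over all genes, 10.7% had groups without overlap in either direction, and 4.86% were higher in model lungs without overlap. The model means of Col1a1, Col1a2 and Tcf21 were higher and those of Pdgfra, Dcn and Lum lower, with differences from -0.13 for Dcn to 0.22 for Col1a2.

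The 10 genes lay in 3 ranges of level. The receptors were the most abundant, from 16.4 to 30.02 FPKM over all libraries, which placed their means between the percentiles 87.6 and 92.5 of the 19203 genes tested. Fgf1, Fgf7, Fgf18 and Fgf10 lay between 2.08 and 10.4 FPKM, and Fgf2 and Fgf9 did not exceed 0.374 FPKM. By mean over the 6 libraries the order was Fgfr2, Fgfr3, Fgfr4, Fgfr1, Fgf1, Fgf7, Fgf18, Fgf10, Fgf2 and Fgf9. The only neighbours in this order whose ranges over the libraries did not overlap were Fgfr1 with Fgf1 and Fgf10 with Fgf2. The sums of Fgf18 and Fgf10 include short assembled fragments. On its annotated transcript, Fgf10 had a mean of 1.73 FPKM, above the 1.56 FPKM of Fgf18. Estimated reads had a median of 337 for Fgf10 and 67.1 for Fgf18. The 4 receptors summed to 90.8, 88.0 and 82.2 FPKM in control and 89.5, 95.4 and 92.4 FPKM in model lungs. The 6 ligands summed to 18.0, 16.1 and 17.1 FPKM in control and 20.2, 14.9 and 13.8 FPKM in model lungs, so both sums overlapped between the groups.

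**Figure D1:**
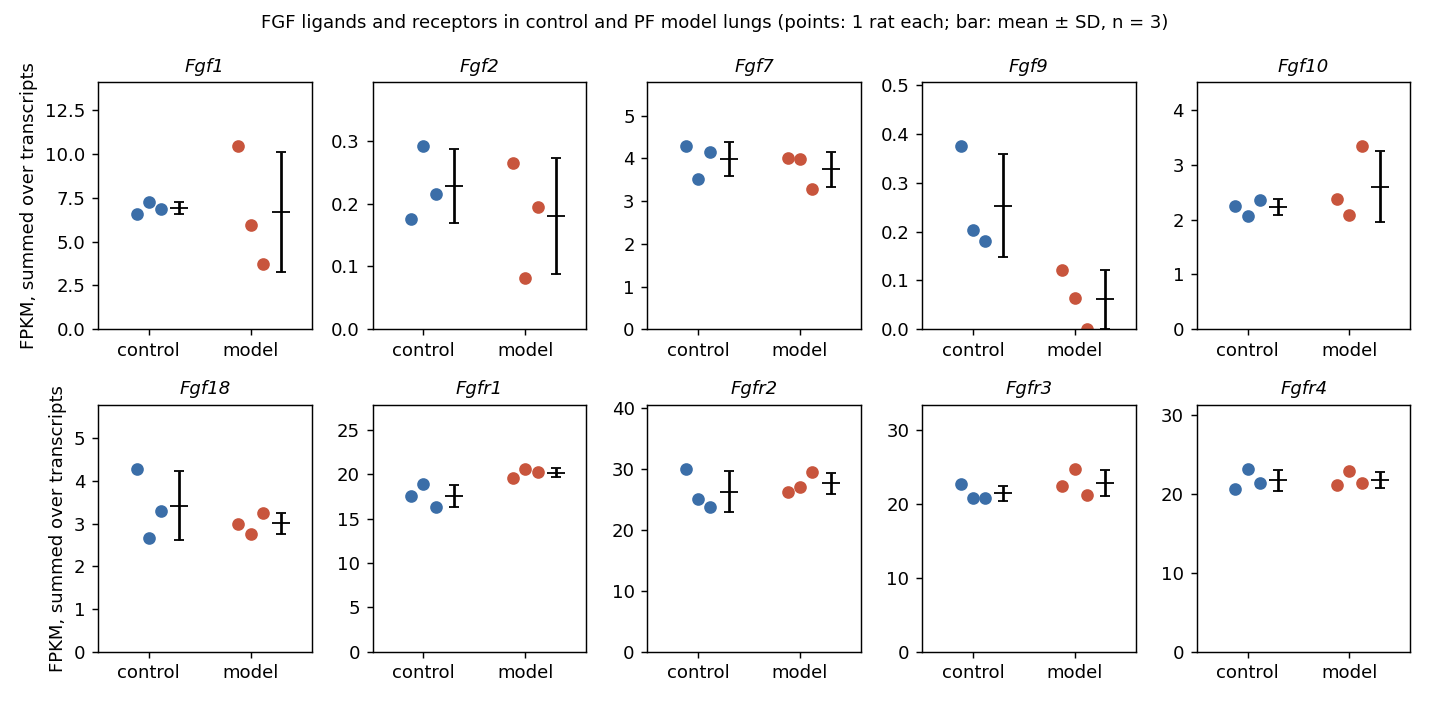
FPKM of each FGF ligand and receptor, summed over its transcripts, with 1 point per rat and the mean ± SD of each group (n = 3), each panel on its own linear axis from 0. Only Fgf9 (controls above) and Fgfr1 (model lungs above) had groups that did not overlap, and Fgf1 spread from 3.73 to 10.4 FPKM in model lungs against 6.60 to 7.28 FPKM in controls.

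Of the 10 genes, 1 was called, Fgf9, and it was lower in model lungs. Over all genes tested 1.53% were called in either direction and 0.838% in the lower direction. None of the 10 passed an adjusted p of 0.05 with limma (adjusted p of at least 0.934 over all genes), where 0.0104% of all genes did. The groups did not overlap in 2 of the 10, against 10.7% of all genes. Fgfr1 was the 1 gene higher in model lungs, where 4.86% of all genes were, and Fgf9 the 1 gene lower, where 5.83% were. The 10 differences had a median of -0.03 on the log2 scale, against -0.01 over all genes tested, with 5 above and 5 below 0.

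Fgf9 was at 0.374, 0.204 and 0.181 FPKM in the 3 control lungs and at 0.120, 0.0649 and 0 FPKM in the 3 model lungs. Every control lung was thus above every model lung, and the library listed at 0 was model 3. The mean was 4.09 times higher in controls, with a difference of -0.24 ± 0.08 (SE) on the log2(FPKM + 1) scale and an unadjusted p of 0.0216 with limma. After adjustment over all genes p was 0.934. The value rests on few reads. An estimated 0 to 34.7 reads per library, with a median of 14.5, fell on its single annotated transcript, ENSRNOT00000015367 of 3 exons and 2000 bases at chr15:38341089-38387316. Among genes with a mean under 1 FPKM, 4.07% were called in either direction and 2.24% in the lower one, against a share in either direction of 0.554% of genes at 1 FPKM or more. The unadjusted p was 0.0513 without control 1, 0.0507 without model 2 and 0.0713 without model 3, each of which ends the call.

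Msln, a defining mesothelial marker, was at 2.67, 4.43 and 3.56 FPKM in control and 3.85, 6.02 and 7.11 FPKM in model lungs, with overlapping groups. The other defining marker, Upk3b, ranged from 1.52 to 4.51 FPKM in control and from 1.05 to 4.93 FPKM in model lungs. The 5 mesothelial genes summed to 6.22 to 11.4 FPKM in control and 7.42 to 13.6 FPKM in model lungs, with none of the 4 tested called, and their part in the Fgf9 difference was not tested. In these whole-lung libraries, fewer cells that express a gene and less of its RNA per cell cannot be told apart.

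**Figure D2:**
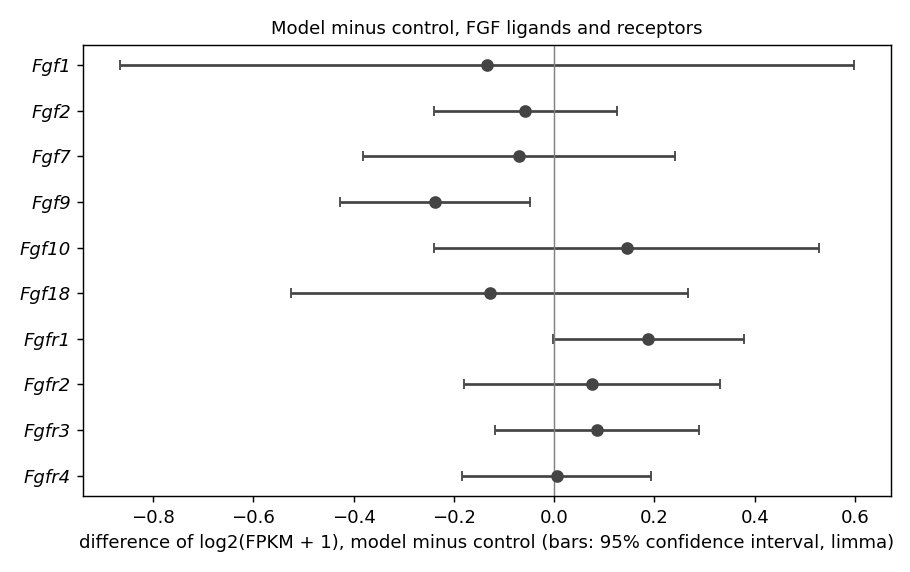
Difference of log2(FPKM + 1), model minus control, for each FGF gene, with the limma estimate as a point and its 95% confidence interval as a bar. The interval of Fgf9 lay below 0, from -0.43 to -0.05, the lower bound of Fgfr1 lay at -0.002, and the interval of Fgf1, from -0.87 to 0.60, was the widest of the 10.

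Fgf7, keratinocyte growth factor, and Fgf10 are the mesenchymal ligands of the epithelial form of Fgfr2. Fgf7 was at 4.28, 3.52 and 4.15 FPKM in control and 3.997, 3.97 and 3.28 FPKM in model lungs, a difference of -0.07 ± 0.13 (SE) with a 95% interval from -0.38 to 0.24. The groups overlapped and limma gave an unadjusted p of 0.606. Fgf10 was at 2.25, 2.08 and 2.36 FPKM in control and 2.39, 2.09 and 3.34 FPKM in model lungs, a difference of 0.14 ± 0.16 with an interval from -0.24 to 0.53 (unadjusted p = 0.397 with limma). Model 3 was thus the highest library for Fgf10, but the groups overlapped here as well.

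The excess of Fgf10 in model 3 lay outside its annotated transcript. ENSRNOT00000016485, which spans chr2:51672722-51750369, was at 1.63, 1.58 and 2.10 FPKM in control and 1.47, 1.91 and 1.67 FPKM in model lungs. The remainder was MSTRG.18864.1, a fragment of 1 exon and 245 bases that the assembly placed within an intron, without a strand. It was at 0.617, 0.499 and 0.255 FPKM in control and 0.916, 0.180 and 1.67 FPKM in model lungs, on an estimated 1.94 to 18.8 reads. It made up between 8.62% and 49.9% of the Fgf10 value. With annotated transcripts alone the difference of Fgf10 was -0.04, with the opposite sign.

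Fgf7 also held 2 transcripts. MSTRG.23858.1, an assembled variant of 4 exons that spans chr3:118316780-118368760, was at 3.87, 2.81 and 3.43 FPKM in control and 2.75, 3.49 and 1.89 FPKM in model lungs. The annotated ENSRNOT00000012700 was at 0.412, 0.712 and 0.715 FPKM in control and 1.24, 0.480 and 1.39 FPKM in model lungs. The assembled variant led in all 6 libraries with 57.6% to 90.4% of the gene value. Fgf7 lies within Fam227b on the opposite strand, whose annotated transcript was at 0.253 to 0.634 FPKM. The difference of Fgf7 was 0.31 when annotated transcripts alone were summed, opposite in sign to that of the whole gene.

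Fgf18 is a ligand of the alveolar stage of lung development. It was at 4.28, 2.67 and 3.30 FPKM in control and 2.99, 2.76 and 3.26 FPKM in model lungs, with overlapping groups and a difference of -0.13 ± 0.16 (unadjusted p = 0.463 with limma). Its value also joined unlike parts. MSTRG.4985.1, a fragment of 1 exon and 367 bases beyond the 3′ end of the gene, made up between 30.3% and 68.1% of it. The annotated ENSRNOT00000072297, at chr10:18047109-18063391, was at 2.04, 1.86 and 1.68 FPKM in control and 1.40, 0.879 and 1.52 FPKM in model lungs. On this transcript every control lung was above every model lung, on an estimated 21.5 to 52.5 reads per library. The difference of -0.34 ± 0.17 was not called (unadjusted p = 0.0984, adjusted p = 0.945 with limma).

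Fgf1, the acidic FGF, binds the splice forms of all FGF receptors and was the most abundant of the 6 ligands. It was at 6.60, 7.28 and 6.89 FPKM in control lungs and at 10.4, 5.95 and 3.73 FPKM in model lungs. Model 1 was above and models 2 and 3 were below all controls, and the difference was -0.13 ± 0.30 with an interval from -0.87 to 0.60 (unadjusted p = 0.674 with limma). Without model 3 the difference was 0.17. Its coefficient of variation over the 6 libraries was 32.0%, larger than in 86.4% of the 13890 genes with a mean of at least 1 FPKM, whose median was 14.5%.

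Fgf2, the basic FGF, was low in all libraries. It was at 0.175, 0.291 and 0.216 FPKM in control and 0.265, 0.0820 and 0.195 FPKM in model lungs, on an estimated 4.58 to 16.3 reads per library. The groups overlapped, and the difference was -0.06 ± 0.08 (unadjusted p = 0.474 with limma). The single transcript, ENSRNOT00000023388 at chr2:124081072-124134681, overlaps at its 3′ end the gene Nudt6 on the opposite strand. The annotated Nudt6 transcript ranged from 0.0192 to 1.29 FPKM over the libraries.

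The receptors varied little. Fgfr4 had a coefficient of variation of 4.82% over the 6 libraries, which was smaller in only 2.81% of the 13890 genes, while Fgfr3 had 6.87%, Fgfr1 8.72% and Fgfr2 9.25%. All 4 were thus below the median of 14.5%. The 13890 genes were not matched by level to the receptors, whose means lay between the percentiles 87.6 and 92.5. The part of their level in the small spread was not tested. Of the ligands, Fgf7 was below it too with 9.99%, and Fgf18 with 18.2% and Fgf10 with 19.5% were above it.

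**Figure D3:**
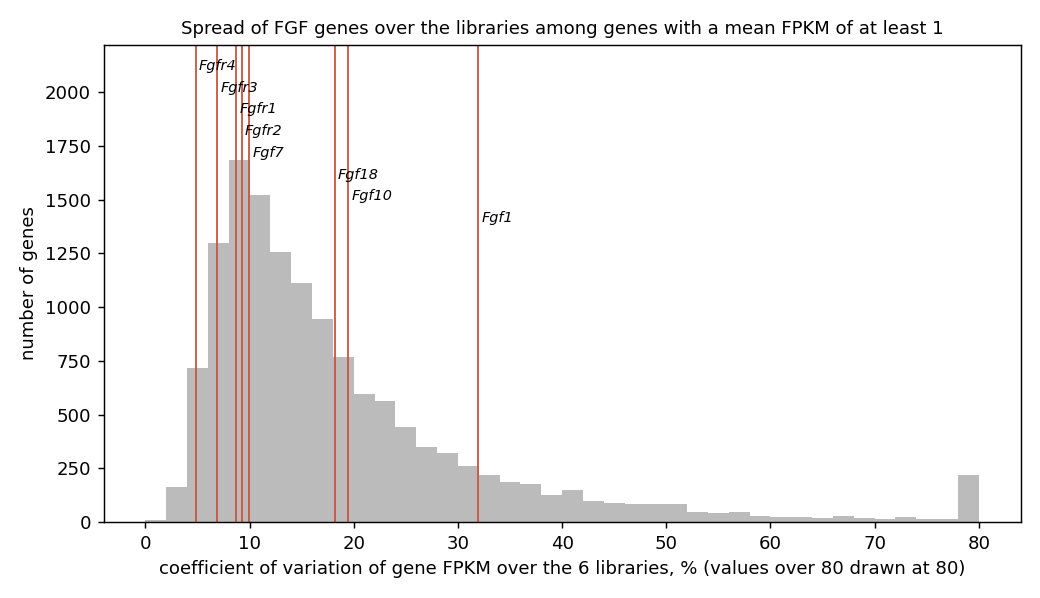
Histogram of the coefficient of variation (percent) of gene FPKM over the 6 libraries for the 13890 genes with a mean of at least 1 FPKM, with lines at the 8 FGF genes that reach this level and values over 80% drawn at 80%. The 4 receptors and Fgf7 lie left of the median of 14.5%, between 4.82% and 9.99%, and Fgf1 lies at 32.0%. The genes of the histogram are not matched by level to the FGF genes.

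Fgfr1, the receptor best known in mesenchymal cells, was at 17.5, 18.9 and 16.4 FPKM in control lungs and at 19.6, 20.6 and 20.2 FPKM in model lungs. All model lungs were above all controls, by 14.6% in the mean. The difference was 0.19 ± 0.08 with an interval from -0.002 to 0.38, and it missed the threshold on p (unadjusted p = 0.0519, adjusted p = 0.934 with limma) as well as the threshold on the ratio. The unadjusted limma p of Fgfr1 was 0.0147 with FPKM rescaled to TPM and 0.028 from estimated reads. It was 0.0794 with length weights, 0.433 with annotated transcripts alone and 0.15 without control 3, so it lay on both sides of the threshold. The fibroblast list summed to 324 to 343 FPKM in control and 347 to 448 FPKM in model lungs. Without Col3a1, a sum made after the values were seen, the other 6 genes summed to 165, 165 and 170 FPKM in control and 158, 178 and 216 FPKM in model lungs, which overlap. The part of the fibroblast markers in the Fgfr1 difference was not tested. Fgfr1 spans chr16:71261915-71319449, and an RNA on the opposite strand within it, MSTRG.14457.2, is among its 6 transcripts. A transcript of Letm2, MSTRG.14457.1, runs into Fgfr1 on the same strand as this RNA. MSTRG.14457.2 was at 1.87, 1.97 and 1.93 FPKM in control and 2.04, 2.38 and 2.05 FPKM in model lungs. In it and in MSTRG.14458.5 all model lungs were above all controls, and the other Fgfr1 transcripts overlapped. With annotated transcripts and their assembled splice variants alone, the difference of Fgfr1 was 0.19. The leading transcript, MSTRG.14458.2 of 17 exons, was at 9.77, 8.25 and 8.06 FPKM in control and 10.4, 8.01 and 11.4 FPKM in model lungs, with overlap.

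Fgfr2, the receptor of Fgf7 and Fgf10 on epithelium, had the highest level of the 10. It was at 30.02, 25.02 and 23.7 FPKM in control and 26.2, 27.0 and 29.5 FPKM in model lungs, a difference of 0.08 ± 0.11 with an interval from -0.18 to 0.33 (unadjusted p = 0.503 with limma). Fgfr3 was at 22.6, 20.9 and 20.8 FPKM in control and 22.5, 24.8 and 21.3 FPKM in model lungs, a difference of 0.09 ± 0.08 with an interval from -0.12 to 0.29 (unadjusted p = 0.344 with limma). Fgfr3 and Fgfr4 are known together from the formation of alveoli. Fgfr4 was at 20.6, 23.2 and 21.4 FPKM in control and 21.1, 23.0 and 21.3 FPKM in model lungs, a difference of 0.01 ± 0.08 (unadjusted p = 0.951 with limma). Its interval, from -0.18 to 0.19, was the narrowest of the receptors, and the groups of Fgfr2, Fgfr3 and Fgfr4 overlapped. With annotated transcripts alone, which leave out the leading MSTRG.14868.4, the difference of Fgfr4 was -0.26. It was 0.13 from estimated reads, 0.10 with length weights and 0.05 with annotated transcripts and their assembled splice variants. The Fgfr4 sum also holds MSTRG.14867.1, a fragment of 1 exon and 263 bases without a strand. This fragment was at 2.03, 2.91 and 2.16 FPKM in control and 1.52, 1.47 and 1.96 FPKM in model lungs, without overlap.

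The profiles nearest to these 3 receptors over the 6 libraries were those of Hsd17b10 for Fgfr2, Selenoo for Fgfr3 and H2afy for Fgfr4. Their root mean square differences on the centred log2 scale were 0.021, 0.016 and 0.018, out of 13890 genes compared. The own spread of the receptors on that scale was 0.12, 0.08 and 0.06. Each was picked as the closest of 13890 genes over only 6 libraries, so it is close by selection. A relation between these genes was not tested.

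The single transcripts differed more between the groups than the gene sums, with a median absolute difference of 0.19 against 0.11 on the log2 scale. Over all features tested these medians were 0.16 for transcripts and 0.10 for genes. Of the 36 transcripts 35 could be tested, since ENSRNOT00000068183 of Fgfr2 was above 0 in too few libraries. Only that of Fgf9 was called, where 2.98% of all 64867 transcripts tested were called in either direction and 1.76% in the lower one. An unadjusted p of at most 0.05 was found for 2 of the 35, against 4.53% of all transcripts. The groups did not overlap in 7 of the 35, against 10.4% of all transcripts. Of these, 3 were higher and 4 lower in model lungs, against 4.12% and 6.29% of all transcripts. No transcript of the 10 genes passed the adjusted threshold with limma (adjusted p from 0.945 to 0.998), where 0.0277% of all did.

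In Fgfr4, MSTRG.14868.4 of 16 exons was the leading transcript in all libraries. It was at 8.31, 11.1 and 7.96 FPKM in control and 11.4, 11.5 and 13.0 FPKM in model lungs, so that all model lungs were above all controls. The difference of 0.37 ± 0.14 had an unadjusted p of 0.0438 (adjusted p = 0.945 with limma), and the log2 ratio of means of 0.39 was under the threshold for a call. Against this, the 2 annotated Fgfr4 transcripts exchanged their order between libraries of the same group. ENSRNOT00000042394 was at 3.80, 1.99 and 0.412 FPKM in control and 0.389, 2.51 and 2.35 FPKM in model lungs. ENSRNOT00000082836 was at 0.308, 0.230 and 3.05 FPKM in control and 1.73, 0.276 and 0.291 FPKM in model lungs. The latter was thus high in control 3 and model 1, the same libraries in which the former was low.

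Fgf1 showed the widest exchange of the 10 genes. ENSRNOT00000087408, the annotated transcript of 5 exons that spans chr18:32273770-32359824, was at 0.111, 6.42 and 0.792 FPKM in control and 9.67, 0.634 and 0.596 FPKM in model lungs. MSTRG.16601.4, an assembled variant that starts further downstream, was at 3.77, 0 and 0 FPKM in control and 0, 4.03 and 1.82 FPKM in model lungs. MSTRG.16601.3, another variant with nearly the same 3′ end, was at 6.07 FPKM in control 3 and at most 0.480 FPKM in the other 5 libraries. So the leading transcript was the annotated one in control 2 and model 1, MSTRG.16601.3 in control 3 and MSTRG.16601.4 in the remaining 3 libraries, and the split did not follow the groups. The share of ENSRNOT00000087408 ranged from 1.68% to 92.6% of the gene value. With annotated transcripts alone the difference of Fgf1 was 0.36, with an unadjusted p of 0.729 (limma).

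Changes of the leading transcript between libraries were common in the table. Among the 905 genes with 5 transcripts and a mean of at least 1 FPKM, 29.6% had at least 3 leading transcripts over the 6 libraries, as Fgf1 had. The median over these genes of the largest range of a transcript's share was 31.6 percentage points, against 90.9 for Fgf1. Of the 7 other FGF genes with several transcripts, Fgf18 had 2 leading transcripts and the other 6 had 1 each.

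**Figure D4:**
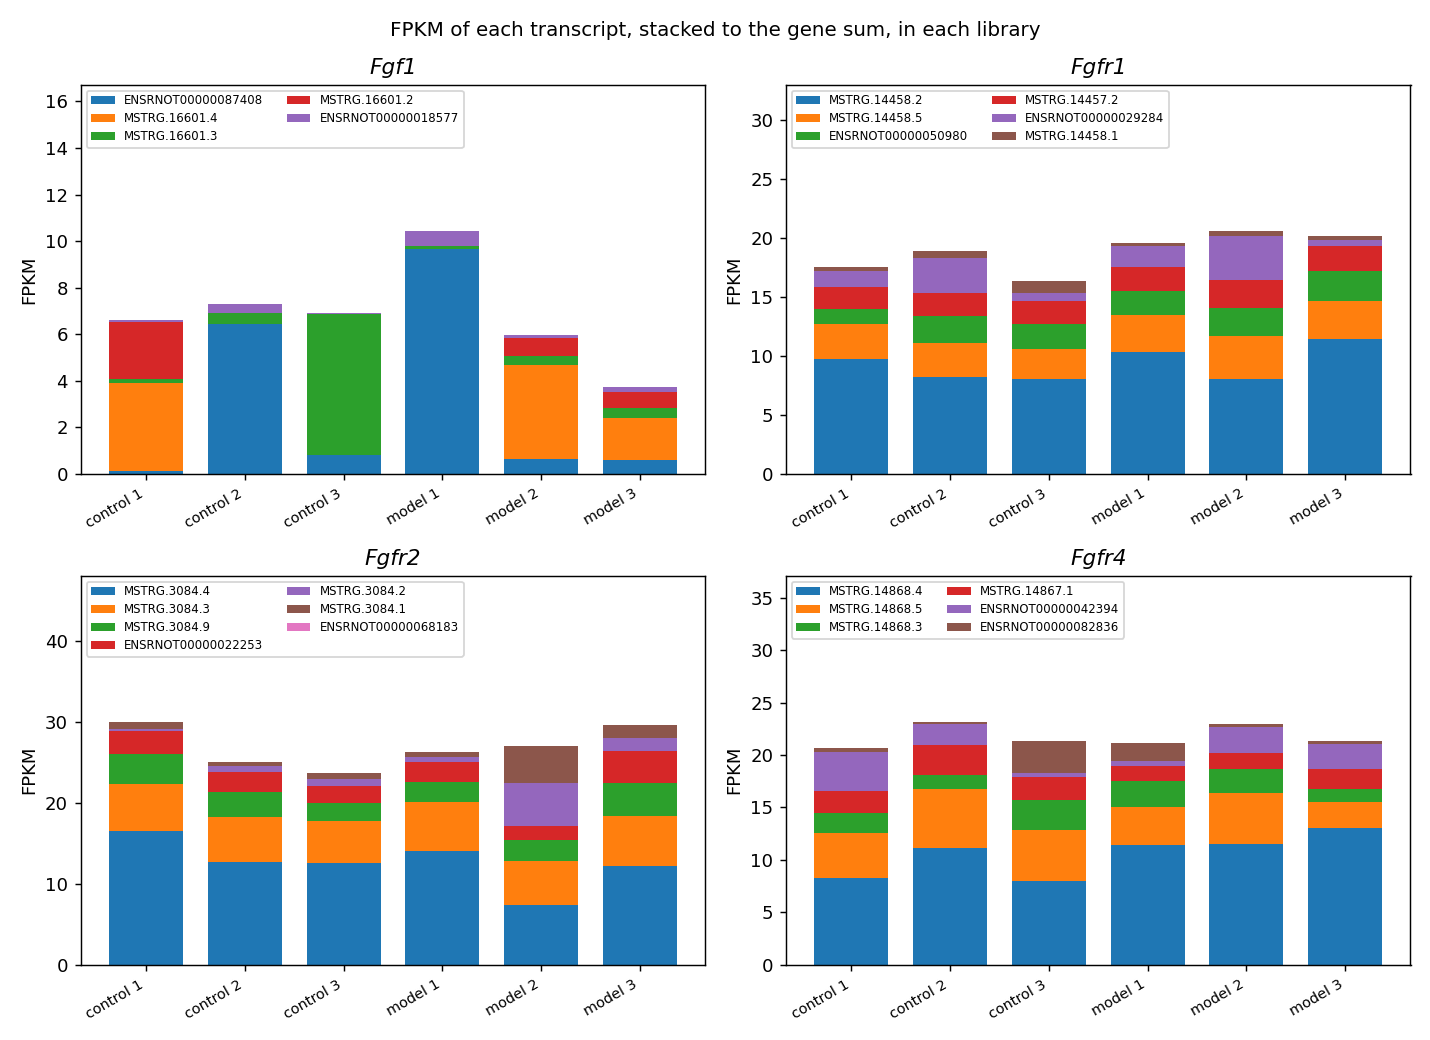
FPKM of each transcript of Fgf1, Fgfr1, Fgfr2 and Fgfr4 in each library, stacked to the gene sum (linear axes from 0). The leading transcript of Fgf1 differs between libraries of the same group, MSTRG.3084.4 of Fgfr2 makes up 27.4% of the sum in model 2, and the sums of the 3 receptors lie between 16.4 and 30.02 FPKM.

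In Fgfr2, the split of model 2 stood apart. MSTRG.3084.4 of 16 exons was at 16.6, 12.7 and 12.5 FPKM in control and 14.1, 7.41 and 12.2 FPKM in model lungs, and it led in all 6 libraries. MSTRG.3084.1 and MSTRG.3084.2, of 17 exons each, were at 4.59 and 5.28 FPKM in model 2 and at no more than 1.57 FPKM in the other 5 libraries. The share of MSTRG.3084.4 was therefore 27.4% in model 2, the lowest of the 6. The sequences that would tell the epithelial and mesenchymal splice forms apart were not used here, so these transcripts are named by their identifiers alone.

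Fgfr3 showed the steadiest transcript of all 36. MSTRG.11873.1 of 18 exons was at 11.97, 11.6 and 12.1 FPKM in control and 11.99, 12.5 and 11.7 FPKM in model lungs, a coefficient of variation of 2.70%. The annotated ENSRNOT00000080695 was at 9.44, 8.09 and 7.49 FPKM in control and 9.48, 10.7 and 8.48 FPKM in model lungs. Of these 2, neither separated the groups. Letm1 on the opposite strand overlaps the 3′ end of MSTRG.11873.1, at chr14:82267347-82288583, but neither annotated Fgfr3 transcript. Whether reads were counted by strand is not given in the sources used here. Reads of MSTRG.11873.1 in the overlap may thus belong to either gene.

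The other genes of the pathway were taken from 6 lists of 98 names, of which 85 were found and 82 tested. None was called in either direction, against 1.53% of all genes, none passed the adjusted threshold, and 2 had an unadjusted p of at most 0.05, against 4.9% of all genes. The groups did not overlap in 9 of the 82, against 10.7% of all genes.

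Both genes under 0.05 were in the list of co-receptors and ligand carriers, in which 10 of 11 names were tested. Cd44, a cell surface receptor of hyaluronan whose variant form carries heparan sulfate, was at 26.1, 25.8 and 25.6 FPKM in control and 32.5, 28.8 and 28.3 FPKM in model lungs. Its difference was 0.20 ± 0.08 (unadjusted p = 0.0382, adjusted p = 0.934 with limma). Nrp1, neuropilin 1, was at 86.4, 86.9 and 86.3 FPKM in control and 79.2, 71.4 and 77.3 FPKM in model lungs, a difference of -0.19 ± 0.07 (unadjusted p = 0.0376, adjusted p = 0.934 with limma). In both genes the groups did not overlap, but the size of the difference was far from the threshold for a call. The difference of Nrp1 was -0.10 with FPKM rescaled to TPM (unadjusted p = 0.329 with limma), and that of Cd44 was 0.05 with annotated transcripts alone (unadjusted p = 0.866 with limma). With a replicate block the unadjusted p was 0.0772 for Nrp1 and 0.0641 for Cd44 (limma).

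Among the 22 heparan sulfate proteoglycans and their enzymes tested, the median difference was 0.10, against -0.01 over all genes tested. None of the 22 was called or had an unadjusted p of at most 0.05 with limma. The groups did not overlap in 2 of them, both higher in model lungs. Over all genes, 10.7% had groups without overlap in either direction, and 4.86% were higher without overlap. Their summed level was 389.8 to 419.7 FPKM in control lungs and 419.8 to 485.5 FPKM in model lungs, with model 3 the highest, so the 2 ranges nearly touched. Ext2, an enzyme that extends the heparan sulfate chain, was at 19.8, 19.7 and 17.5 FPKM in control and 22.3, 20.5 and 23.2 FPKM in model lungs, without overlap (unadjusted p = 0.0538 with limma). Sdc1, the epithelial syndecan, was at 40.8, 32.1 and 31.7 FPKM in control and 41.6, 37.8 and 44.6 FPKM in model lungs, with overlap (unadjusted p = 0.0842 with limma).

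**Figure D5:**
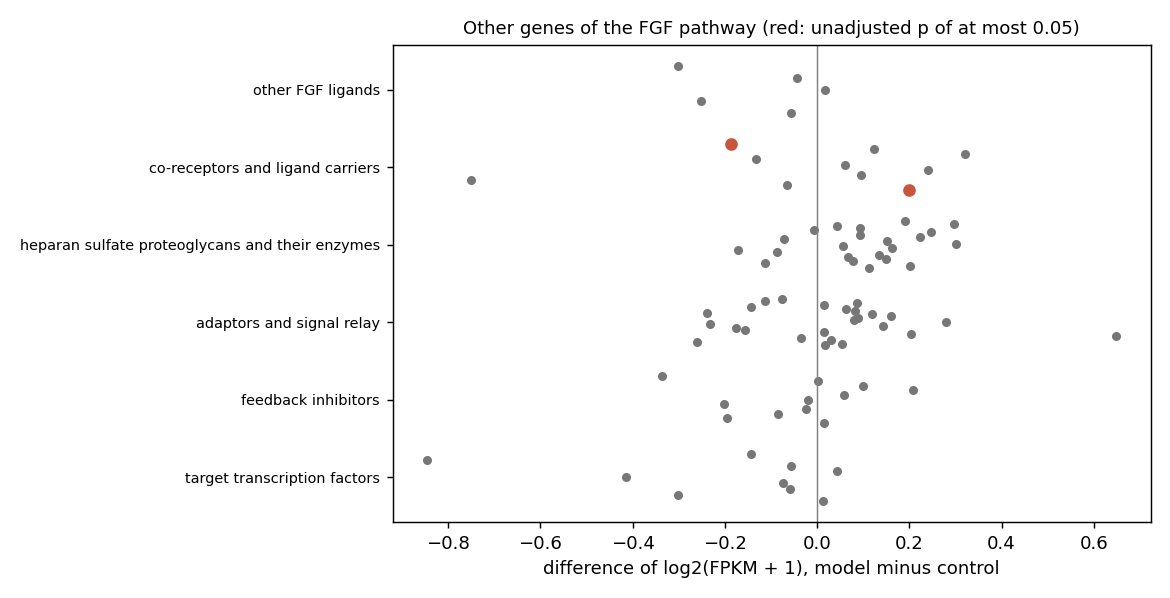
Difference of log2(FPKM + 1), model minus control, for the 82 tested genes of 6 lists of the FGF pathway, with 1 point per gene and a larger red point where the unadjusted limma p was at most 0.05. The 2 red points are Nrp1 at -0.19 and Cd44 at 0.20, and the median of the heparan sulfate list lies at 0.10.

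The relay and its targets gave no call either. Of 25 adaptors and relay kinases tested, the median difference was 0.03. The groups did not overlap in 3 of the 25, all lower in model lungs. Over all genes, 10.7% had groups without overlap in either direction, and 5.83% were lower without overlap. Braf, a kinase of the MAP kinase relay, was at 16.0, 16.0 and 14.5 FPKM in control and 14.2, 13.6 and 10.8 FPKM in model lungs (unadjusted p = 0.0661 with limma). Frs2, the adaptor docked to FGF receptors, was at 5.73, 1.65 and 1.90 FPKM in control and 5.58, 5.08 and 3.98 FPKM in model lungs, so that control 1 alone overlapped the model lungs. Over all libraries the difference of Frs2 was 0.65 ± 0.36 (unadjusted p = 0.122, adjusted p = 0.934 with limma). Without control 1, Frs2 passed both thresholds of a call, with a difference of 1.07 (unadjusted p = 0.00123 with limma). Since control 1 was the overlapping library, its removal had to separate the groups. In that setting 2.0% of all genes were called.

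Among 11 feedback inhibitors, Spry4, a Sprouty protein that dampens receptor tyrosine kinase signalling, was at 13.4, 13.8 and 13.2 FPKM in control and 15.7, 7.50 and 9.55 FPKM in model lungs. Lrig3 was at 6.03, 6.87 and 6.90 FPKM in control and 5.90, 6.17 and 4.81 FPKM in model lungs, and the groups of both genes overlapped. The list had a median difference of -0.02.

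The 9 target transcription factors had a median of -0.07. Fos, an immediate early gene of the MAP kinase relay, was at 35.2, 35.5 and 34.6 FPKM in control and 40.4, 27.8 and 15.7 FPKM in model lungs (unadjusted p = 0.222 with limma). Nkx2-1, the transcription factor of lung epithelium, was at 7.48, 9.90 and 41.4 FPKM in control and 8.53, 10.8 and 5.01 FPKM in model lungs, so that its difference of -0.85 ± 0.62 rests on control 3 (unadjusted p = 0.215 with limma).

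Of 17 other genes of the FGF family listed, 8 were found by name and 5 tested, with none called. Fgf12, an FGF homologue that stays inside the cell, was at 27.4, 37.3 and 28.1 FPKM in control and 25.8, 31.3 and 20.7 FPKM in model lungs (unadjusted p = 0.21 with limma). These sums rest on a median of 738 estimated reads, fewer than the 1149 of Fgf1, and with annotated transcripts alone the difference of Fgf12 was -0.01 in place of -0.25. Fgf17 was at 1.24, 1.57 and 1.38 FPKM in control and 1.67, 1.57 and 0.823 FPKM in model lungs, with overlap.

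Circular RNAs with one of the 10 genes as host were rare. The separate table of back-splice reads, which mark the junction of a circular RNA, held 6 of 5216 circular RNAs and 13 of 14904 reads from these genes. The hosts were 3 receptors, with 10 reads for Fgfr2, 2 for Fgfr1 and 1 for Fgfr3. The most frequent, circRNA1088 of 4 exons of Fgfr2 at chr1:200648164-200672411, had 3, 1 and 0 reads in control and 1 read in each of the 3 model lungs. Control lungs gave 10 of the 13 reads and model lungs 3, too few for a test.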

How the data were processed

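Lung RNA of 3 control and 3 PF model rats was analysed, grouped by the sample type in the labels, with a sample for each of the 24 measurement columns. According to the methods of the study, reads were cleaned with Cutadapt and placed on the rat genome by Bowtie2 and Tophat2, and transcripts were assembled by StringTie. The FPKM deposited for every transcript came from StringTie and Ballgown. The submitters' processing notes name HISAT2, StringTie and TopHat. Beside it, the authors deposited mean coverage by base, without scaling for depth, and raw counts of back-splice reads per circular RNA. The genome build and the strand setting were not given in the sources used here, and coordinates are those of the files.

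Gene FPKM were plain sums over transcripts of a gene name with at least 1 Ensembl transcript. Reads were estimated as transcript length times coverage over 150, the bases per read. Features above 0 in at least 3 of the 6 libraries (19203 genes, 64867 transcripts) were compared with limma 3.58.1 with trend in R 4.3.3, two-sided, on log2(FPKM + 1), with Benjamini-Hochberg adjustment over all of them. Features were called at an unadjusted p up to 0.05 when the means also differed by 1 or more in absolute log2 ratio. The fit was tested on simulated data with large changes placed only in genes well above Fgf9 in level and reads. The simulation therefore does not cover the call of Fgf9.

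The members, gene lists and named-gene rule were chosen with earlier results of these data known. The text names, for each member, its most abundant transcript and any transcript with an unadjusted p of at most 0.05, for each list the 2 genes of smallest p with a mean of at least 1 FPKM, marker genes, nearest profiles of the 3 most abundant members and circular RNAs hosted by members. Other transcripts of the members and the genes that overlap them were named after their values were seen. Other pseudocounts, filters, scalings, tests, sums of transcripts, a replicate block and leaving out each library were the alternatives. No sequences are printed.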

Additional observations from a re-analysis of the deposited data

How the results depend on the processing

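Fgf2 and Fgf9 rest on few reads, and Fgf9 is the only call among the 10 genes. With genes under a mean of 1 FPKM left out, the call is not made, since Fgf9 is not tested (0 genes and 0 transcripts called). Leaving out 1 library gave 0 to 1 genes called among the 10, and the difference of Fgf9 ranged from -0.28 to -0.17. Over the other alternatives it was negative throughout, from -1.16 (pseudocount of 0.1) to -0.24. Its transcript was not called with an F test per gene on log2(FPKM + 1) with a library size covariate and no shared variance, or with limma without trend (0 called), and leaving out 1 library gave 0 to 3 called transcripts. Without model 1, the calls were MSTRG.3084.1 and MSTRG.3084.2 of Fgfr2 beside Fgf9.

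Over all genes, 293 were called, 79 with the filter at 1 FPKM, 153 with the F test, 519 with annotated transcripts only, and 317 to 409 without 1 library. Rescaled to TPM, 194 were higher and 138 lower, against 132 and 161. In the pathway lists, annotated transcripts alone gave 2 calls (Akt1 and Extl3), and leaving out 1 library 0 to 1. With the replicate block 311 genes were called and no call among the 10 differed. Same-numbered samples shared only a number, with correlations of their deviations of 0.073, 0.032 and -0.075, and control 3 did not correlate best with its own number.

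Signs of uncalled differences turned as follows. With annotated transcripts only, values were 0.36 for Fgf1, 0.31 for Fgf7, -0.045 for Fgf10, -0.26 for Fgfr4, 0.041 for Braf and 0.032 for Lrig3. Fgf10 was also at -0.040 from estimated reads and at -0.029 with length weights. It was at -0.045 when only annotated transcripts and assembled splice variants of them were summed, without other assembled fragments. This setting was added after the data were seen, and in it Lrig3 was at 0.032. With the F test, values were -0.022 for Fgfr2, -0.011 for Fgfr4, 0.084 for MSTRG.23858.1, 0.077 for ENSRNOT00000016485, -0.12 for MSTRG.14458.2 and 0.10 for Nkx2-1. ENSRNOT00000016485 was at 0.0092 in TPM, and Fgf17 at 0.0055 with length weights. Leaving out 1 library gave ranges of -0.47 to 0.17 for Fgf1, -0.11 to 0.0039 for Fgf2 and its transcript ENSRNOT00000023388, -0.14 to 0.0038 for Fgf7, -0.25 to 0.0087 for Fgf18, -0.031 to 0.051 for Fgfr4, -0.14 to 0.13 for Fgf17, -0.60 to 1.10 for ENSRNOT00000087408, -0.10 to 0.040 for ENSRNOT00000016485, -0.095 to 0.33 for MSTRG.4985.1 and -0.0077 to 0.037 for MSTRG.11873.1. The causes were not tested.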
